A study of Homo sapiens with 6 samples.

Results

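The 39 HOX genes are the members of the 4 HOX clusters, chosen here as the rows of the count table whose symbol is HOX followed by a cluster letter from A to D and a paralogue number. They are 39 of 26490 gene symbols in the table. RNA-seq compared SW403 cells, an established human colon adenocarcinoma line, in 2 groups of 3 libraries. The control group had normal IRS2 expression and is labelled WT by genotype, and in the other group IRS2, which encodes an adaptor of the insulin and IGF1 receptors, was knocked down, although another label and the column names abbreviate this group as a KO. Each group consisted of 3 cultures kept for 24 h after seeding in DMEM with 10% FBS at 5% CO2, with no treatment. How IRS2 was lowered, and whether each group was 1 clone or a pool of cells, is not given in the sources used here, so p-values measure the spread between these cultures.

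HOX genes encode homeodomain transcription factors that give cells their position along the body axis. They lie in 4 clusters, and genes at the same place in different clusters are paralogues and carry the same number. Low numbers are expressed towards the head and high numbers towards the tail, and in the gut their combination differs between foregut, midgut and hindgut. HOX proteins bind DNA together with partners of the TALE class (PBX, MEIS and PKNOX), CDX proteins and retinoic acid act upstream of them, and Polycomb and Trithorax complexes keep clusters silent or active.

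In control cells HOX transcripts of all 4 clusters were present, with the HOXA and HOXB clusters at the highest levels. After IRS2 knockdown 20 of the 36 HOX genes with enough counts for testing fell and 2 rose, against 19.2% lower and 19.3% higher among all tested genes (38.5% in either direction). Most of the changes were modest. HOXA9, the HOX gene with the highest level, fell 1.52-fold, HOXD13 1.58-fold and HOXD10 1.78-fold, while HOXA11, HOXB2 and HOXB3 did not pass the test.

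The promoter windows of 5 of these genes, and 1 window listed for both HOXC4 and HOXC5, are shown first. They cover genes that changed and 1 gene that did not pass the test. The RefSeq table (GRCh38.p14) held windows for 20 of the 39 HOX genes, 27 entries at 26 distinct starts, each 300 bases long with 250 before and 50 after an annotated start. The sequences run 5′ to 3′ along the gene. Capitals mark TATAAA, the core promoter element bound by the TATA-binding protein, CCAAT, bound by NF-Y, and CACGTG, the E-box bound by basic helix-loop-helix factors such as MYC and USF, each on either strand. HOXA9 (chr7:27165488-27165787, minus strand), HOXD13 (chr2:176092471-176092770, plus strand), HOXD10 (chr2:176116528-176116827, plus strand) and HOXA13 (chr7:27200042-27200341, minus strand) fell. RefSeq lists 1 window for both HOXC4 and HOXC5 (chr12:54016638-54016937, plus strand), and of these genes HOXC4 fell and HOXC5 rose. In the GENCODE annotation on GRCh37 the HOXC4 gene starts at 54410715 and the HOXC5 gene at 54426834. These GENCODE gene starts differ, while RefSeq lists the same annotated start for both genes. Which start was used in these cells was not tested. HOXA11 (chr7:27185183-27185482, minus strand) did not pass the test.
HOXA9: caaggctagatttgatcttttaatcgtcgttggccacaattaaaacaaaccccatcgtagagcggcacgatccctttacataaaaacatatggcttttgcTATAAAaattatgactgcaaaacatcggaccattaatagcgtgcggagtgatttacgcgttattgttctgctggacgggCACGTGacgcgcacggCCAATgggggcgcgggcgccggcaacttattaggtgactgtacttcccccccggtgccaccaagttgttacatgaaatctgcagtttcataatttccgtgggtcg
HOXD13: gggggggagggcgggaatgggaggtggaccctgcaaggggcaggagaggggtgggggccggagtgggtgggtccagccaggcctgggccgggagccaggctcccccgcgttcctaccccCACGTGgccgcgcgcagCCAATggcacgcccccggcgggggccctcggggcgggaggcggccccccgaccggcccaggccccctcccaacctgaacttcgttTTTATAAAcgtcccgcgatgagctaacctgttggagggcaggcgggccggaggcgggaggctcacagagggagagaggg
HOXD10: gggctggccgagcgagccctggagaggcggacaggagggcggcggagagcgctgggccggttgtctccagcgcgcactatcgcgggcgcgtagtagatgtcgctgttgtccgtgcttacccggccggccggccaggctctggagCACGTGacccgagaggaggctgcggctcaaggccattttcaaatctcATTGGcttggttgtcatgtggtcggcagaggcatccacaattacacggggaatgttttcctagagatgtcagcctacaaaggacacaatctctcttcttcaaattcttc
HOXA13: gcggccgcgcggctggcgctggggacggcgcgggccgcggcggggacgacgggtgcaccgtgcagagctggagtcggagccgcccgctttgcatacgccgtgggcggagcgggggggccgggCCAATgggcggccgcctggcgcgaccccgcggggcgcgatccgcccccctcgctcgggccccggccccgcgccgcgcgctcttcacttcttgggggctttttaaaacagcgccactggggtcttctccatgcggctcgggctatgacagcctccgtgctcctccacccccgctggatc
HOXC4 and HOXC5: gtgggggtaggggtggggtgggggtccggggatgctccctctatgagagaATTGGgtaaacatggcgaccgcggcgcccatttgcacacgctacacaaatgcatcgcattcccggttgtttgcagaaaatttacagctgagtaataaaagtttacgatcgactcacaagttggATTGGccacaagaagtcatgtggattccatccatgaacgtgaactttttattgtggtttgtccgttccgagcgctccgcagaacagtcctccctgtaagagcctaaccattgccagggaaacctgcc
HOXA11: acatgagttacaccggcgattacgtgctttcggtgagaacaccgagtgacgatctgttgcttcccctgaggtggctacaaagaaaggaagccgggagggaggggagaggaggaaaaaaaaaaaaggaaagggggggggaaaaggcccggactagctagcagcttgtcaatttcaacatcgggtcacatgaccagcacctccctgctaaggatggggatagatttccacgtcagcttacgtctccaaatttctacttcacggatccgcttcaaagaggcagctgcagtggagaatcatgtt

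The HOXD13 window held a TATAAA on the strand of the gene whose first base lay 27 bases before the start, overlapping a match on the other strand from 29 to 24 bases before it. In the HOXA9 window TATAAA lay 150 bases before the start, and its CACGTG and CCAAT lay at 71 and 55 bases. CACGTG occurred in 9 of the 26 HOX windows, against 7.23% of the 34943 windows of the same length in the table, and CCAAT in 17 of 26, against 34.6%. HOX windows were richer in CG dinucleotides, with a median of 22.5 against 14 over all windows, at nearly the same GC content (58.0% and 58.7%). Among genes with a window, CACGTG was present for 6 of the 11 that fell (HOXA4, HOXA9, HOXD3, HOXD10, HOXD11 and HOXD13) and for 3 of the 6 that were tested and did not pass (HOXA3, HOXA7 and HOXD1). CCAAT was present for 9 of the 11 that fell and for 5 of those 6, among which HOXA11 was the exception. TATAAA was present for 3 of the 11 that fell and for 1 of the 6. AGGTCA, the core element of retinoic acid receptor sites, was in none of the 26 HOX windows and in 13.8% of all windows. CCATAAA, a site of CDX and posterior HOX proteins, was found for HOXD8 alone (2.55% of all windows), and TGATTGAT, a joint PBX and HOX site, for HOXA2 and HOXD11 (0.487% of all windows). The first 3 motifs were chosen after the windows were read, and a match describes letters only.

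The control libraries held 11816973 to 12585013 counts and the knockdown libraries 14329348 to 18114656, so every knockdown library was deeper. IRS2, the check of the labels, was at 33.2 ± 1.42 CPM (counts per 1000000 counts of the library; SD, n = 3) in control and 12.4 ± 0.535 CPM in knockdown, a 2.62-fold decrease. Of 12 colon epithelium markers, KRT8, KRT18, KRT19, EPCAM, CDX2 and VIL1 passed the expression filter. Of these KRT19 fell from 230.1 ± 11.4 to 162.0 ± 8.22 CPM and EPCAM from 40.2 ± 1.43 to 33.9 ± 1.38 CPM (SD, n = 3 each; edgeR adjusted p 4.35e-08 and 0.00581), CDX2 rose, and KRT8, KRT18 and VIL1 did not pass the test. KRT20 and CDX1 had no count in any library, and CDH1, CDH17, LGALS4 and GPA33 had at most 11 counts in any library. Fibroblast markers (8 genes) summed to 8.97 to 27.7 CPM in control and 5.80 to 7.34 CPM in knockdown, immune markers (8 genes) to 2.39 to 3.81 and 3.04 to 3.49 CPM, and endothelial markers (6 genes) to 0.338 to 0.876 and 0.558 to 0.662 CPM. COL1A1 and COL3A1 were lower in knockdown, COL1A1 was highest in the first control library (15.3 CPM, against 5.73 and 5.67 in the others), FAP and PTPRC had 1 count in 1 library each, and the part of these markers in the HOX differences was not tested.

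HOX transcripts together took 0.0971% to 0.0999% of the counts of a control library. Levels of different genes were compared as CPM per kb of the canonical transcript (GENCODE version 44 on GRCh37). The HOXB cluster (chr17:46605888-46806112) held 45.7% ± 1.13 of the summed HOX level per kb in control (SD, n = 3) and the HOXA cluster (chr7:27132612-27239710) 37.0% ± 1.05. The HOXC cluster (chr12:54332615-54449814) held 8.55% ± 0.253 and the HOXD cluster (chr2:176957449-177055635) 8.74% ± 0.182. HOXA and HOXB thus supplied most HOX transcripts, and HOXC and HOXD were close to each other.

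The order of single genes followed the same division. HOXA9 led with 52.2 ± 2.59 CPM per kb, followed by HOXB6 (48.1 ± 3.25) and HOXB8 (41.5 ± 2.35; SD, n = 3 each), and the HOXA9 and HOXB6 levels differed by less than the sum of their SDs. HOXB2, a hindbrain regulator in the embryo, was at 30.8 ± 1.73, HOXA7 at 29.0 ± 0.577, HOXB7 at 27.6 ± 2.22 and HOXB9 at 26.2 ± 1.17 CPM per kb, and neighbours in this run of 4 genes also lay within their SDs. The highest genes of the other clusters were HOXC10 at 14.8 ± 0.0722 and HOXD13 at 13.9 ± 0.271 CPM per kb. Of the 39 genes, 15 reached 10 CPM per kb, 6 of them in HOXA and 7 in HOXB, and 33 reached 1 CPM per kb.

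Paralogue numbers cut across the clusters. Paralogue 9 had the largest summed level (90.1 CPM per kb over 4 genes), ahead of paralogue 6 (63.2 over 3 genes) and paralogue 7 (56.7 over 2 genes). Paralogue 13, expressed at the tail end of the embryo and in the hindgut, was present in all 4 clusters, with HOXD13 well above HOXB13 (3.09 ± 0.415), HOXC13 (2.78 ± 0.239) and HOXA13 (2.27 ± 0.266 CPM per kb; SD, n = 3 each). HOXB13 was therefore not the leading paralogue 13 gene here, and its neighbour PRAC1, a gene of the distal gut and prostate, had 0 to 2 counts in a library. Paralogue 12 was nearly silent. HOXC12 had 2, 6 and 5 counts in control and 3, 3 and 4 in knockdown, and HOXD12 had 5, 2 and 2 counts in control and 1, 1 and 4 in knockdown. HOXB1, a gene of the hindbrain, had no count in any of the 6 libraries, which allows up to 0.166 to 0.254 CPM by counting error alone, depending on the library. These 3 genes did not pass the expression filter.

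**Figure D1:**
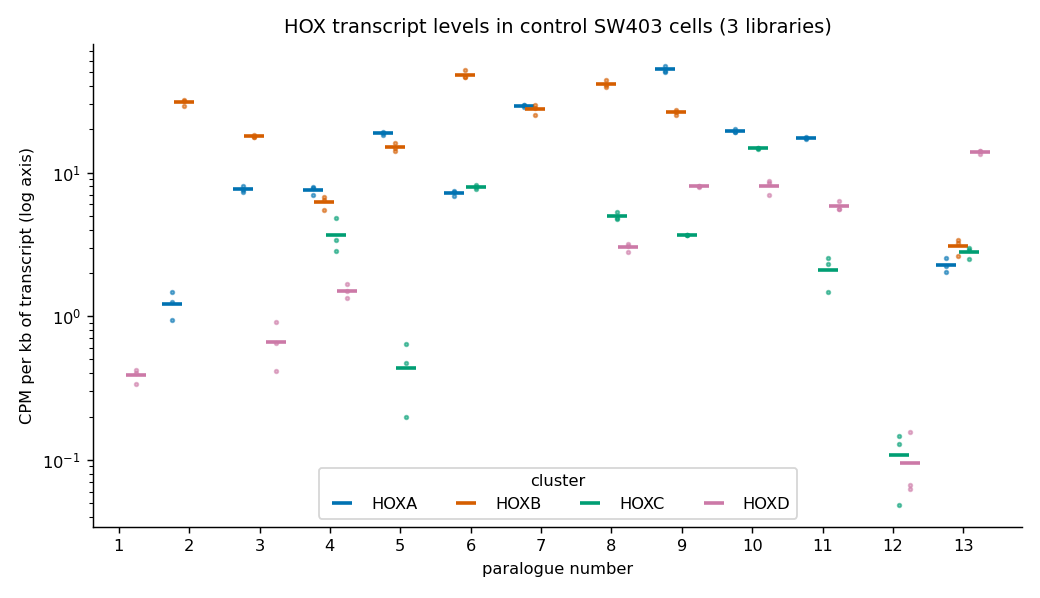
HOX levels in the 3 control libraries by paralogue number (x axis), in CPM per kb of transcript on a log axis (y axis), with points for libraries and dashes for means, coloured by cluster, for the HOX genes reported here. HOXA9 is highest at 52.2 CPM per kb, paralogue 12 lies near 0.1, and HOXB1, at 0, cannot be drawn.

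The knockdown was then compared with control in edgeR's quasi-likelihood test over all 13832 genes that passed the filter, with Benjamini-Hochberg adjustment and a threshold of 0.05. Of the 36 tested HOX genes 22 passed (61.1%), against a background of 38.5% of all tested genes. There were 20 lower HOX genes (55.6%, against 19.2% of all tested genes) and 2 higher (5.56%, against 19.3%). The median log2 fold change was -0.23 over the 36 HOX genes and -0.0039 over all tested genes, and 26 of 36 HOX genes were below 0, against 50.8% of all tested genes. For 24 HOX genes every knockdown library was below every control library in CPM, against 28.7% of all tested genes, and these included all 20 that fell. The list itself was not tested against other genes. DESeq2's Wald test called fewer genes in all, 3599 of 15331 tested, with 10.8% of those tested lower. Of the 37 HOX genes it tested, 11 were lower and 0 higher, with 1 higher at an unadjusted p under 0.05. With all libraries thinned to the smallest total, edgeR called 17 lower and 2 higher of 35 tested HOX genes, against 17.9% lower of all 13641 tested genes.

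Summed over the 39 genes, HOX transcripts were at 998.6, 982.3 and 970.9 CPM in the control libraries and 838.2, 827.4 and 827.4 CPM in the knockdown libraries. Every knockdown library lay below every control library, and the knockdown mean was 84.5% of the control mean. The HOXD cluster was lowest relative to control, at 57.1 ± 0.777 against 85.0 ± 2.27 CPM (67.2%; SD, n = 3 each). HOXA stood at 81.7% of control, HOXB at 89.3% and HOXC at 89.2%. In bulk libraries, fewer cells of one kind and less RNA per cell cannot be told apart.

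By position, 1 of the 7 tested genes with paralogue numbers 1 to 3 fell, 10 of the 15 numbered 4 to 8, and 9 of the 14 numbered 9 to 13. Among all tested genes 19.2% fell, and the block numbered 1 to 3 was near that share. The median log2 fold changes of the 3 blocks were 0.01, -0.21 and -0.42. The exception in the first block was HOXD3. The 4 paralogue 13 genes all fell, and so did the 3 paralogue 6 genes. These counts describe the genes, and the difference between the blocks was not tested.

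**Figure D2:**
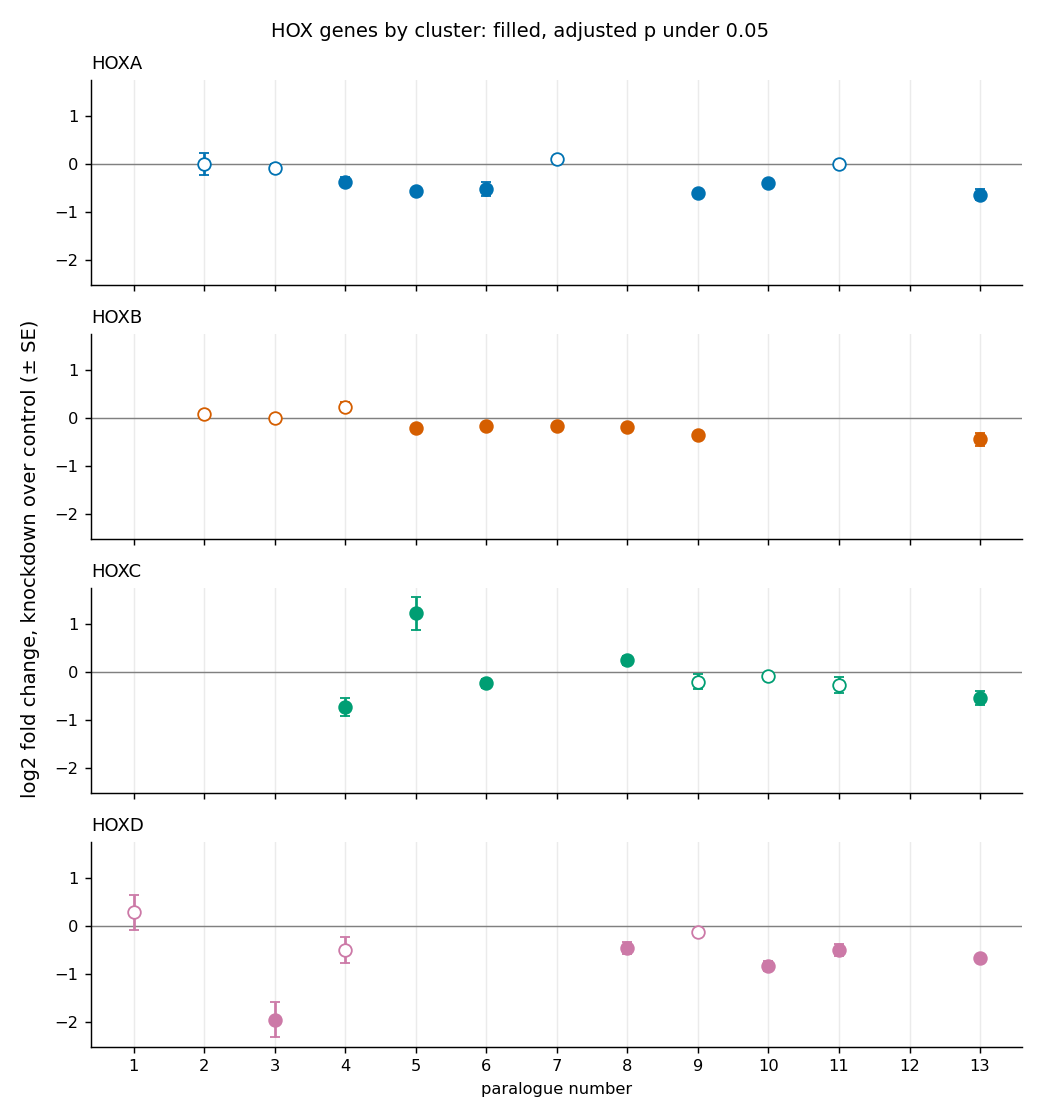
Log2 fold change of knockdown over control with its SE (y axis) for the HOX genes reported here by paralogue number (x axis), 1 panel per cluster, filled where the adjusted p was under 0.05. Paralogues 1 to 3 lie near 0 except HOXD3 at -1.95 and HOXD1 at 0.28, whose SE of 0.36 spans 0. Paralogue 13 is below 0 in all 4 clusters.

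In the HOXA cluster 6 of 11 genes fell, against 19.2% of all tested genes. HOXA9, a partner of MEIS1 and an oncogene in leukaemia, lies on chromosome 7 (GRCh37, 27202057 to 27214799). It was at 105.4, 113.9 and 104.1 CPM in control and 66.2, 71.1 and 70.3 CPM in knockdown. The groups were far apart, with a log2 fold change of -0.61 ± 0.05 (SE) and an edgeR adjusted p of 6.93e-09, the smallest among HOX genes. HOXA10, known for its role in the uterus, went from 50.7, 48.9 and 48.9 CPM to 36.7, 35.7 and 37.5 CPM (log2 fold change -0.40 ± 0.05 SE, edgeR adjusted p 4.03e-06). HOXA5, which patterns the lung and gut mesenchyme, went from 30.6, 32.1 and 31.2 CPM to 21.8, 21.0 and 19.4 CPM (-0.57 ± 0.07 SE, edgeR adjusted p 1.37e-06). Neither gene's groups overlapped.

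HOXA13, required for the digits and the hindgut, was at 10.2, 12.8 and 11.2 CPM in control and 7.47, 6.62 and 7.40 CPM in knockdown. Its log2 fold change was -0.64 ± 0.12 (SE; edgeR adjusted p 0.000217). HOXA4 was at 13.3, 11.7 and 13.3 CPM in control and 9.49, 10.4 and 9.11 CPM in knockdown (-0.37 ± 0.10 SE, edgeR adjusted p 0.00618). HOXA4 and HOXA13 fell without overlap of their groups. HOXA6 was at 7.39, 7.24 and 6.77 CPM in control and 5.58, 5.39 and 3.75 CPM in knockdown (-0.52 ± 0.15 SE, edgeR adjusted p 0.0110). The third knockdown library was its lowest, and without it the log2 fold change was -0.35 and the adjusted p 0.0668.

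The other 5 HOXA genes did not pass the test. HOXA7 was at 59.1, 59.3 and 57.2 CPM in control and 59.0, 60.9 and 63.3 CPM in knockdown (0.09 ± 0.05 SE, edgeR adjusted p 0.131), and its groups overlapped. HOXA11, which patterns the forearm and the uterus, was at 45.5, 47.1 and 46.5 CPM in control and 48.0, 45.0 and 44.2 CPM in knockdown (0.0083 ± 0.05 SE, edgeR adjusted p 0.918). HOXA2 and HOXA3, genes of the hindbrain and pharyngeal arches, had log2 fold changes of 0.0046 and -0.08.

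Genes without a difference past the threshold thus lay between genes that fell. The count ratio of 2 genes within a library does not depend on scaling, and 5 pairs were compared in this way after their values were seen. HOXA11 over HOXA10 was 0.897, 0.964 and 0.950 in control and 1.31, 1.26 and 1.18 in knockdown. HOXA7 over HOXA9 was 0.561, 0.521 and 0.550 in control and 0.891, 0.857 and 0.900 in knockdown. In both pairs all knockdown ratios lay above all control ratios. HOXD9 over HOXD10 had means of 1.06 ± 0.134 in control and 1.70 ± 0.0196 in knockdown, HOXB4 over HOXB5 of 0.447 ± 0.0389 and 0.612 ± 0.0442, and HOXC5 over HOXC4 of 0.127 ± 0.0874 and 0.447 ± 0.0995 (SD, n = 3 each), again without overlap. Since the pairs were chosen for these values, no test is given.

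In the HOXB cluster 6 of 9 tested genes fell, by small amounts, against 19.2% of all tested genes. HOXB9, expressed in posterior mesoderm, was at 67.9, 70.8 and 64.7 CPM in control and 53.8, 49.5 and 53.6 CPM in knockdown (log2 fold change -0.35 ± 0.05 SE, edgeR adjusted p 2.43e-05). HOXB8 was at 96.1, 86.3 and 88.5 CPM in control and 81.0, 77.1 and 76.3 CPM in knockdown (-0.18 ± 0.05 SE, edgeR adjusted p 0.00390). In both genes the groups did not overlap, and the fall of HOXB8 amounted to 1.13-fold. HOXB6 was at 86.8, 76.9 and 78.0 CPM in control and 73.6, 70.4 and 68.7 CPM in knockdown (-0.16 ± 0.05 SE, edgeR adjusted p 0.0159). The first control library was the highest for HOXB6 and HOXB8, and without it HOXB6 had a log2 fold change of -0.10 and an adjusted p of 0.117. Without the second knockdown library the adjusted p of HOXB6 was 0.0567.

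HOXB13, the prostate and distal colon member of paralogue 13, was at 10.3, 7.96 and 9.90 CPM in control and 5.86, 6.62 and 7.67 CPM in knockdown (log2 fold change -0.44 ± 0.13 SE, edgeR adjusted p 0.0127). The highest knockdown library came close to the lowest control library. Without the first control library the adjusted p of HOXB13 was 0.0729, and without the first knockdown library 0.0569. HOXB5 was at 29.7, 26.4 and 27.8 CPM in control and 24.8, 23.6 and 22.5 CPM in knockdown (-0.21 ± 0.07 SE, edgeR adjusted p 0.0164), with adjusted p-values of 0.0881 without the first control library and 0.0561 without the third knockdown library. HOXB7 was at 38.5, 34.3 and 40.2 CPM in control and 31.5, 32.6 and 34.0 CPM in knockdown (-0.17 ± 0.06 SE, edgeR adjusted p 0.0390), and passed in only 2 of the 6 fits that each left out 1 library (adjusted p 0.0135 to 0.193; 0.109 without the first control library, 0.193 without the third control library, 0.125 and 0.0988 without the first and second knockdown library). HOXB7 is therefore the least certain of the 6.

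HOXB2, HOXB3 and HOXB4 did not pass the test. HOXB2 was at 53.3, 53.7 and 48.5 CPM in control and 50.9, 52.5 and 56.6 CPM in knockdown (log2 fold change 0.07 ± 0.06 SE, edgeR adjusted p 0.328), with overlapping groups. HOXB3 had a log2 fold change of 0.0051. HOXB4, a gene that expands blood stem cells, had a log2 fold change of 0.24 (edgeR adjusted p 0.0736), and passed as higher without the third control library (0.30, adjusted p 0.0466) or the third knockdown library (0.33, adjusted p 0.0147). In this cluster the genes from HOXB5 to HOXB13 fell and those from HOXB2 to HOXB4 did not pass.

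**Figure D3:**
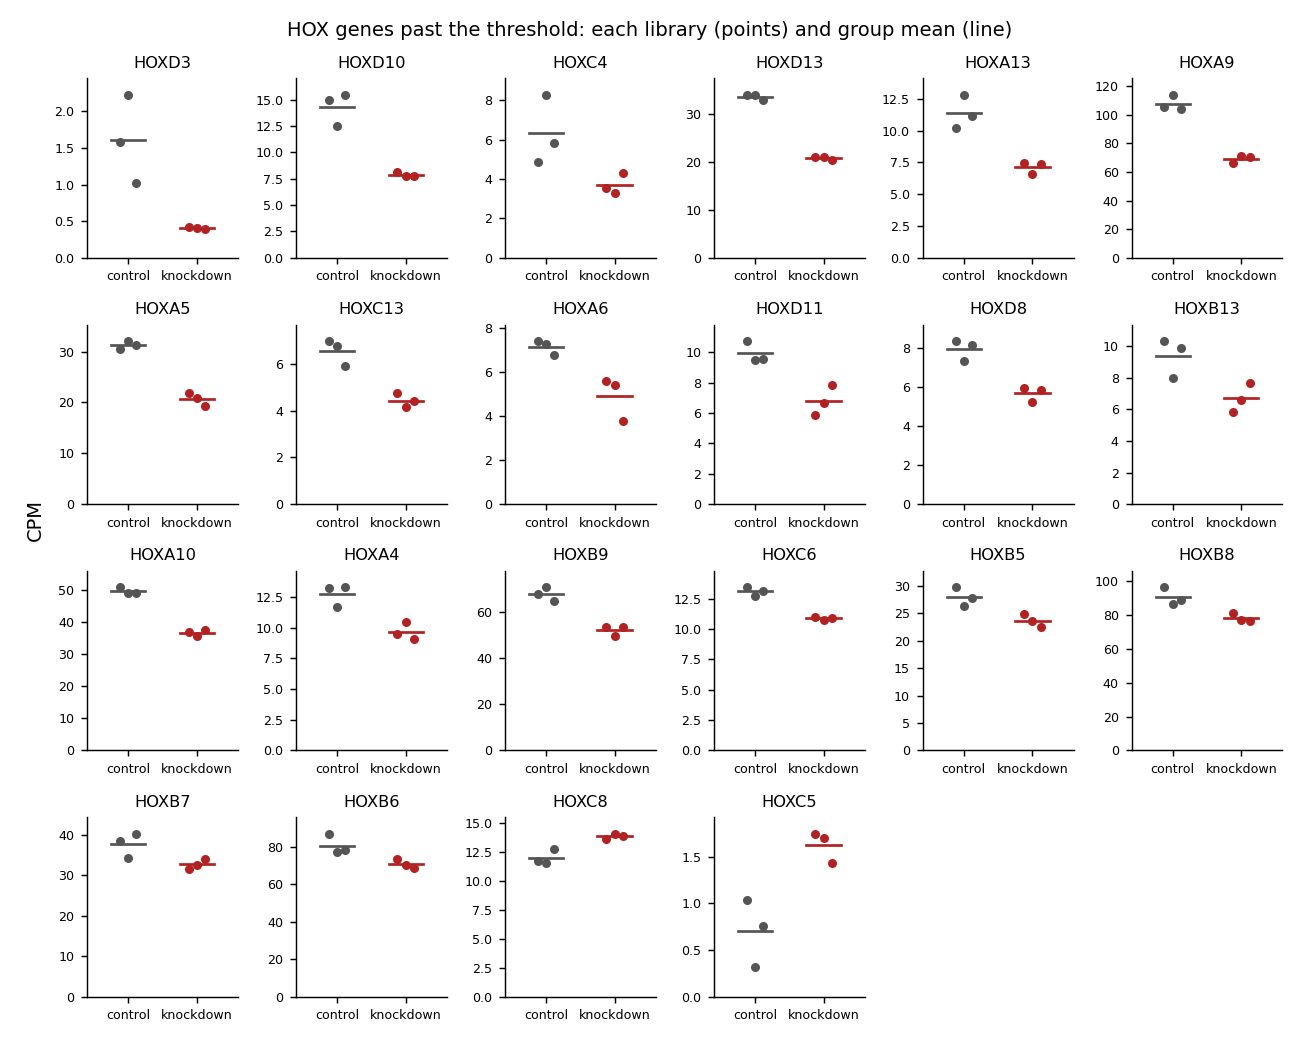
CPM of each library (points) and group means (lines) for the 22 HOX genes past the threshold, control left and knockdown right, each y axis starting at 0. The groups do not overlap in any panel, and HOXC5 and HOXC8 are the genes higher in knockdown.

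In the HOXD cluster 5 of 8 tested genes fell, against 19.2% of all tested genes. HOXD13, whose mutations cause synpolydactyly, lies on chromosome 2 (GRCh37, 176957449 to 176960672). It was at 33.8, 33.9 and 32.7 CPM in control and 20.9, 21.0 and 20.4 CPM in knockdown. Both groups were tight and well apart (log2 fold change -0.66 ± 0.06 SE, edgeR adjusted p 8.42e-08). HOXD10, a regulator of hindlimb motor neurons, went from 15.0, 12.5 and 15.5 CPM to 8.17, 7.79 and 7.73 CPM (-0.83 ± 0.10 SE, edgeR adjusted p 3.60e-06). HOXD11, which acts with HOXA11 in the forearm and kidney, went from 10.7, 9.47 and 9.56 CPM to 5.86, 6.62 and 7.84 CPM (-0.51 ± 0.13 SE, edgeR adjusted p 0.00314). HOXD10 exons overlap 26.5% of the HOXD11 transcript on the same strand, so reads there could have been counted for either.

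HOXD3 showed the largest fold change of any HOX gene, at a low level. It had 20, 28 and 12 counts in control (1.59, 2.23 and 1.02 CPM) and 6, 7 and 7 counts in knockdown (0.419, 0.410 and 0.386 CPM). The log2 fold change of HOXD3 was -1.95 ± 0.37 (SE), a 3.87-fold decrease, with an edgeR adjusted p of 0.000342. HOXD8 went from 8.34, 7.32 and 8.12 CPM to 5.93, 5.22 and 5.85 CPM (-0.46 ± 0.13 SE, edgeR adjusted p 0.00826). Neither gene's groups overlapped.

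HOXD9 was at 15.0, 15.1 and 14.9 CPM in control and 13.8, 13.1 and 13.3 CPM in knockdown. Its groups did not overlap, but the log2 fold change of -0.13 ± 0.08 (SE) did not pass the test (edgeR adjusted p 0.214). HOXD4 and HOXD1, both below 2 CPM in every library, had log2 fold changes of -0.50 ± 0.28 and 0.28 ± 0.36 (SE) and adjusted p-values of 0.168 and 0.580.

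In the HOXC cluster 3 of 8 tested genes fell and 2 rose, against 19.2% lower and 19.3% higher of all tested genes. No other cluster had a gene called higher, and DESeq2's Wald test called 0 HOX genes higher. HOXC5 had the larger rise, from a very low level, with 13, 4 and 9 counts in control (1.03, 0.318 and 0.762 CPM) and 25, 29 and 26 counts in knockdown (1.74, 1.70 and 1.44 CPM). Its log2 fold change was 1.22 ± 0.34 (SE), a 2.33-fold increase, with an edgeR adjusted p of 0.00739. HOXC4, which shares the window shown above, had 61, 104 and 69 counts in control (4.85, 8.28 and 5.84 CPM) and 51, 56 and 78 counts in knockdown (3.56, 3.28 and 4.31 CPM). HOXC4 fell, with a log2 fold change of -0.73 ± 0.19 (SE; edgeR adjusted p 0.00458). The second control library was the lowest of its group for HOXC5 and the highest for HOXC4, and without it the log2 fold changes were 0.88 and -0.48 and the adjusted p-values 0.0562 and 0.0633. The HOXC4 gene spans HOXC5 and overlaps HOXC6, and 67.3% of the canonical HOXC5 transcript overlaps other annotated transcripts on the same strand, so how reads were assigned among them is uncertain.

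HOXC8, a thoracic HOX gene, was at 11.7, 11.5 and 12.8 CPM in control and 13.6, 14.1 and 13.9 CPM in knockdown (log2 fold change 0.24 ± 0.09 SE, edgeR adjusted p 0.0361). It passed in 1 of the 6 fits that each left out 1 library, that without the third control library (adjusted p 0.0294 to 0.105 over the 6). HOXC6 had 169, 160 and 155 counts in control and 158, 183 and 198 in the deeper knockdown libraries, or 13.1 ± 0.346 and 10.9 ± 0.155 CPM (SD, n = 3 each; -0.24 ± 0.09 SE, edgeR adjusted p 0.0429), and it passed in none of those 6 fits (adjusted p 0.0685 to 0.118). Both genes lay close to the threshold although their groups did not overlap. HOXC13, a gene of hair and nails, was at 6.99, 6.77 and 5.92 CPM in control and 4.75, 4.16 and 4.42 CPM in knockdown (-0.54 ± 0.14 SE, edgeR adjusted p 0.00536).

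HOXC9, HOXC10 and HOXC11 did not pass the test. HOXC10, the highest gene of the cluster, was at 29.2, 29.3 and 29.0 CPM in control and 27.0, 28.3 and 25.2 CPM in knockdown (log2 fold change -0.09 ± 0.06 SE, edgeR adjusted p 0.271). HOXC9 and HOXC11 had log2 fold changes of -0.20 and -0.27. Without the third control library HOXC11 passed as lower (-0.46, adjusted p 0.0304).

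**Figure D4:**
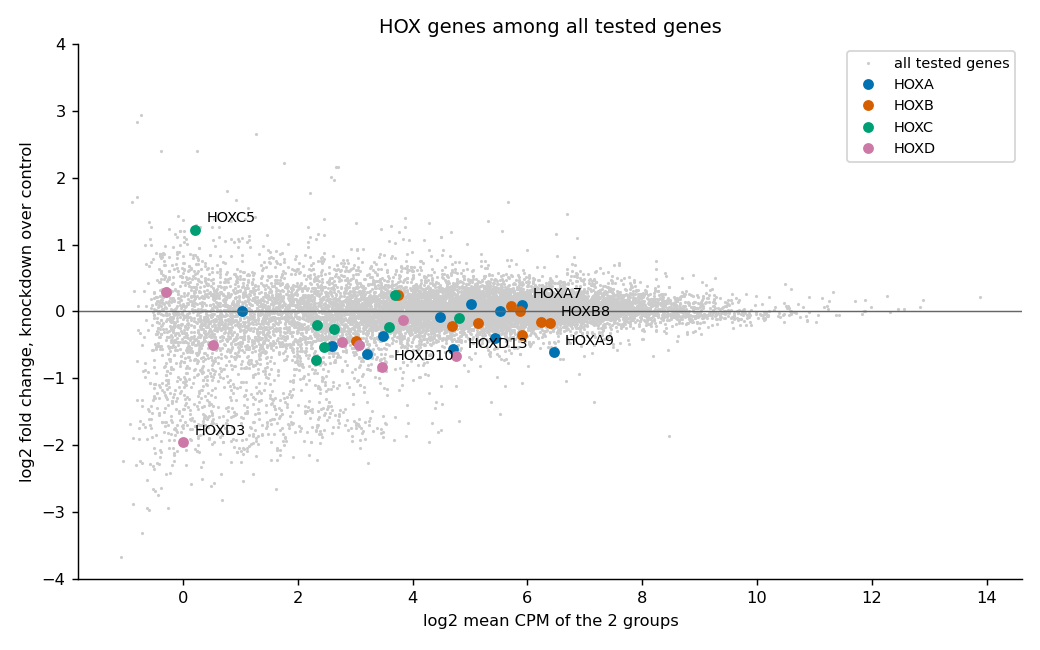
Log2 fold change (y axis) against log2 mean CPM (x axis) for all 13832 tested genes (grey; 1 gene lies below the axis) and the 36 tested HOX genes, coloured by cluster. Most HOX genes lie a little below 0 at middle levels, while HOXD3 and HOXC5 lie at the low end of expression, where grey points also spread widely.

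Of the 20 HOX genes that fell, 10 passed in every alternative fit that tested them (15 fits, and 14 for HOXD3, whose counts were too low for 1): HOXA5, HOXA9, HOXA10, HOXA13, HOXB8, HOXB9, HOXD3, HOXD10, HOXD11 and HOXD13. They come from 3 clusters, and 7 of the 10 carry the numbers 9 to 13, as do 9 of the 20 that fell and 14 of the 36 tested. The share of all tested genes that passed in every fit was not computed, so the count of 10 has no background beside it.

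Antisense RNAs lie across several of these genes, and the labels do not say that strand was kept in library making or counting. HOXA-AS3 exons overlap 74.8% of the HOXA7 transcript. HOXA-AS3 itself was at 7.47, 8.92 and 9.14 CPM in control and 5.93, 6.56 and 5.69 CPM in knockdown and fell (log2 fold change -0.46 ± 0.13 SE, edgeR adjusted p 0.00832), so the value of HOXA7 is uncertain. HOXA-AS3 also overlaps 21.1% of HOXA6, HOXB-AS3 18.2% of HOXB6 and HOXD-AS2 24.5% of HOXD8. HOXA4 shares 32.1% of its transcript with another annotated gene on the same strand and 15.8% with antisense exons. HOXA11-AS overlaps 27.2% of HOXA11 and HOXA10-AS 23.9% of HOXA10, and neither antisense RNA passed the test (log2 fold changes -0.22 and -0.15). HOXA5, HOXA9, HOXB8, HOXB9, HOXD10 and HOXD13 have no annotated antisense exon across their canonical transcript, although 19.2% of the HOXA9 transcript is shared with another annotated gene on its own strand. Of 28 symbols listed for noncoding and readthrough RNAs of the clusters, 9 were tested. HOTAIRM1, a noncoding RNA of the HOXA cluster, fell from 22.3, 21.4 and 20.6 CPM to 16.4, 14.2 and 14.7 CPM (-0.48 ± 0.08 SE, edgeR adjusted p 7.29e-05), and HAGLR, between HOXD1 and HOXD3, rose from 19.7, 18.7 and 16.8 CPM to 19.9, 23.7 and 21.8 CPM (0.28 ± 0.08 SE, edgeR adjusted p 0.0121).

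The DNA-binding partners of HOX proteins were examined next. Of the 9 PBX, MEIS and PKNOX genes tested, 5 fell and 0 rose, against 19.2% lower and 19.3% higher of all tested genes. Their median log2 fold change was -0.19. Those that fell included PBX2, MEIS2, MEIS3 and PKNOX2. Among those that did not pass the test were MEIS1, PBX3 and PKNOX1 (log2 fold changes -0.01, 0.20 and 0.14). MEIS2, a HOX cofactor, fell from 16.0 ± 0.657 to 11.5 ± 0.297 CPM (n = 3 each, ± SD; -0.45 ± 0.09 SE, edgeR adjusted p 0.000343).

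Genes that act upstream of HOX genes did not move one way. CDX2, the caudal factor of the intestine, was at 75.5, 77.8 and 79.8 CPM in control and 80.9, 85.1 and 85.1 CPM in knockdown, and rose slightly (log2 fold change 0.14 ± 0.04 SE, edgeR adjusted p 0.0148), while CDX1 and CDX4 had no count. GSX1, a ParaHox gene of the nervous system, was listed as a relative of HOX genes and not as a regulator. It fell from 4.87 ± 0.0526 to 3.06 ± 0.642 CPM (SD, n = 3 each; -0.64 ± 0.18 SE, edgeR adjusted p 0.00799). Of the 3 tested genes in this ParaHox and caudal list 1 rose and 1 fell, against 19.3% and 19.2% of all tested genes. In the retinoic acid list, 6 of 13 tested genes fell and 2 rose, against 19.2% and 19.3% of all tested genes. ALDH1A2, which makes retinoic acid, fell from 16.0, 15.5 and 14.9 CPM to 3.21, 3.22 and 2.98 CPM (-2.27 ± 0.12 SE, edgeR adjusted p 3.12e-11). ALDH1A3, of the same enzyme family and named after its values were seen, was at a much higher level and fell slightly. It went from 190.9 ± 2.86 to 172.3 ± 0.910 CPM (SD, n = 3 each; -0.12 ± 0.03 SE, edgeR adjusted p 0.00666). RARB, a retinoic acid receptor, fell from 17, 23 and 15 counts to 5, 5 and 6 counts (-2.14 ± 0.36 SE, edgeR adjusted p 0.000107). CYP26A1, a retinoic acid hydroxylase named after its values were seen, fell from 15, 12 and 18 counts to 5, 6 and 4 counts (log2 fold change -1.95, edgeR adjusted p 0.000586). Both genes had few counts. CRABP2, a retinoic acid carrier, and STRA6, the retinol transporter, rose, with log2 fold changes of 0.38 and 0.30. DHRS3 and CYP26B1 of the same list, also named after their values were seen, did not pass the test (0.06 and -0.11). Whether these changes bear on the HOX genes was not tested.

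The chromatin regulators of the clusters that passed the test went in both directions. Of 28 Polycomb genes, 5 rose and 2 fell, against 19.3% higher and 19.2% lower of all tested genes. The higher count was near its share and the lower count below it, and the median log2 fold change was 0.02. SUZ12, a core subunit of the methylating complex PRC2, rose from 147.8 ± 1.32 to 173.3 ± 2.85 CPM, and PHC2, of the ubiquitylating complex PRC1, from 234.7 ± 4.68 to 276.3 ± 4.36 CPM (n = 3 each, ± SD; log2 fold changes 0.26 and 0.27). CBX6 and RBBP4 fell, with log2 fold changes of -0.17 and -0.11. Of 17 Trithorax genes, 4 rose and 3 fell, both near those shares. AFF1, a partner of KMT2A in leukaemia fusions, rose (0.41), as did DOT1L, the H3K79 methyltransferase (0.25), and MLLT3 and PSIP1 fell (-0.49 and -0.16). Among 12 tested genes around the clusters, 3 rose and 2 fell, also near the shares of all tested genes. SKAP1, beside HOXB1, rose (0.52), as did CALCOCO1, beside HOXC13 (0.35), and CBX5 and HNRNPA1, beyond HOXC4, fell (-0.23 and -0.10).

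**Figure D5:**
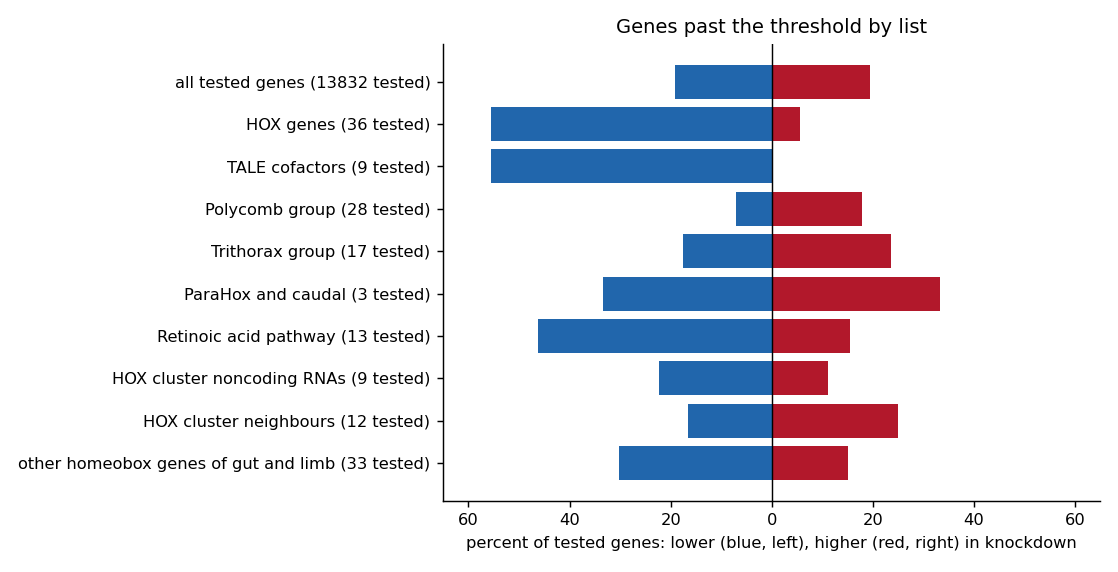
Percent of tested genes lower (left) or higher (right) in knockdown at an adjusted p under 0.05, for all tested genes, the HOX genes and each related list, with the number tested beside each name. HOX genes stand at 55.6% lower and 5.56% higher, against 19.2% and 19.3% of all tested genes.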

How the data were processed

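Per the labels' protocols, libraries were made from 1000 ng of total RNA with the NEBNext Ultra II RNA kit. The authors deposited whole-number counts per gene symbol and a second table, a normalized signal without a stated unit, which equals the counts of each library divided by 1 constant (0.847 to 1.25). The submitters' processing notes name hg19, STAR 2.6.1a, Salmon and DESeq2, without saying which made the counts. The strand setting and the annotation are not given in the sources used here.

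The counts were tested here with edgeR 4.0.16 in R 4.3.3 (TMM factors, filterByExpr, quasi-likelihood F-test, group as the only term, Benjamini-Hochberg adjustment over 13832 genes, threshold 0.05). The SE of a log2 fold change is its size over the root of F. CPM was scaled to library totals, so its group ratios differ slightly from fitted fold changes. Each library's total, 11816973 to 18114656 counts, sets its counting error, and intervals and limits cover counting error only. Replicate pairs of a group differed by more than counting error (chi-square over degrees of freedom 1.41 to 2.86). Samples were grouped by their titles. Scripts were tested on simulated data.

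The members and lists were chosen with earlier results of these data known. Values and statistics are given for HOX genes past the threshold and the 3 highest per length in each cluster, and for the 2 smallest p-values per direction of each list, except that some genes are not reported here by name. Alternatives were DESeq2 1.42.0 size factors or library size, other filters, DESeq2's Wald test, limma 3.58.1 voom, thinned counts, limma on log2 of the deposited values plus 1, a threshold of 0.01, a replicate block and leaving out each library. Gene positions and lengths came from GENCODE version 44 on GRCh37.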

Additional observations from a re-analysis of the deposited data

How the results depend on the processing

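Of 533 values for the 36 tested HOX genes under 15 alternative fits, 471 kept their direction and side of the threshold, 44 lost the call, 4 gained one and 14 changed sign. The changes of sign were in HOXA2, HOXA11 and HOXB3, which lay near 0 and passed in none of the fits. With library size alone their log2 fold changes were -0.026, -0.022 and -0.025, with a mean of at least 50 counts HOXA11 was at -0.0046 and HOXB3 at -0.0078, and with thinned counts HOXA2 was at -0.051. Over the 6 fits that each left out 1 library, HOXA2 ranged from -0.16 to 0.17, HOXA11 from -0.021 to 0.029 and HOXB3 from -0.030 to 0.050. DESeq2's Wald test called 11 lower HOX genes against 20, 0 higher against 2 (1 at an unadjusted p under 0.05), and 1654 lower genes in all against 2653. HOXA4, HOXA6, HOXB5, HOXB6, HOXB7, HOXB13, HOXC6, HOXC13 and HOXD8 lost their call in it. The cause was not tested. The number of higher HOX genes was 1 with library size alone, with a mean of at least 50 counts (which left HOXC5 untested), at a threshold of 0.01 and with the replicate block, and 0 to 3 without single libraries (0 in edgeR without the second control library, with 2 at an unadjusted p under 0.05). The number of lower HOX genes was 15 to 19 without single libraries, against 15.2% to 18.6% lower of all tested genes. Deviations of same-numbered libraries correlated at 0.04, -0.01 and -0.10, and not every library correlated best with its own number. No pairing by replicate number was thus seen, but with so few libraries these values cannot exclude it. With the replicate block 4862 genes passed against 5329, with 19 lower HOX genes and 1 higher, and HOXC6 and HOXC8 lost their call (adjusted p 0.0675 and 0.0578). With the deposited normalized values the log2 ratios of summed levels were -0.25 for HOXA, -0.12 for HOXB, -0.13 for HOXC and -0.53 for HOXD, against -0.29, -0.16, -0.16 and -0.57 in CPM. Without division by length the shares of HOXA, HOXB and HOXC in control were 38.8%, 44.4% and 8.18%. Low counts limit HOXC5, HOXD1, HOXD3 and HOXD4.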

Other observations

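Homeobox genes outside the HOX clusters, taken from a list of genes of gut and limb, were also measured. Of 33 tested, 10 fell and 5 rose, against 19.2% and 19.3% of all tested genes, with a median log2 fold change of -0.11. DLX2, a gene of the limb and forebrain, was at 22.7, 24.7 and 22.1 CPM in control and 11.4, 11.3 and 11.6 CPM in knockdown (log2 fold change -0.99 ± 0.08 SE, edgeR adjusted p 1.34e-08). CUX1 fell from 119.0 ± 3.21 to 88.4 ± 3.22 CPM (SD, n = 3 each; -0.40 ± 0.04 SE, edgeR adjusted p 2.25e-07). TGIF1 and TGIF2, TALE class repressors of TGF-beta and retinoid signalling, rose, with log2 fold changes of 0.38 and 0.27 (edgeR adjusted p 2.88e-05 and 0.000645).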
